A study of Mus musculus with 6 samples.

Results

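Wt1 and the genes of proteins reported to bind its product were followed in the urogenital ridge of mouse embryos that carry or lack the gene. The members were chosen by name, as Wt1 and 5 genes of known WT1-binding proteins, Pawr, Wtap, Basp1, Wtip and Ciao1. Every probe with one of these symbols was taken, which gave 6 of the 20289 probes on the array and covered 5 of the 6 genes. Wt1 had 2 probes (2836 and 17965), and Pawr (512), Wtap (888), Basp1 (2511) and Ciao1 (15362) had 1 each. No probe was named Wtip in the annotation, so Wtip itself was not analysed here.

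The knockout (KO) embryos were Mf1 mice homozygous for a deletion of Wt1, with no statement of which part of the gene is missing, and the wild-type (WT) embryos were Mf1 mice. Both were taken at E11.5 with 11 to 12 tail somites. Each of the 6 single-colour CodeLink arrays, 3 per genotype, was labelled as the ridges of 5 embryos pooled, 4 female and 1 male. Nothing in the labels states whether the 3 arrays per genotype hold separately collected embryos. A p-value here therefore measures array-to-array spread, part or all of which may be technical. Every value is a spot intensity on the linear scale the authors deposited, in which the median probe lay between 0.956 and 0.966 on each array. Differences are KO minus WT on the log2 scale, tested over all probes at once with limma's moderated test, with p-values adjusted by Benjamini-Hochberg over 15062 tested probes and a threshold of 0.05. The number of arrays limits the precision.

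WT1 is a zinc finger protein that works as a transcription factor and binds RNA, and it is made in the coelomic epithelium, the gonadal ridge and the nephrogenic mesenchyme. Without it, kidneys and gonads do not form. Its partners change what it does: PAWR (also called PAR-4), a leucine zipper protein that promotes cell death, and BASP1, a membrane and nuclear protein abundant in growing axons, both turn down transcription by WT1. WTAP was found as a WT1-binding protein and is a core part of the enzyme complex that writes N6-methyladenosine (m6A) into messenger RNA. CIAO1 was likewise found through WT1 and is a scaffold of the cytosolic machinery that places iron-sulfur clusters into enzymes of DNA synthesis and repair. WTIP is a LIM domain protein of cell junctions and the nucleus.

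Wt1 signal was lower in the KO ridges on both probes, and on the brighter one a clear signal was left. Probe 2836 read 14.3, 15.7 and 14.2 on the KO arrays and 44.1, 43.6 and 39.1 on the WT arrays. The genotypes were far apart, with a gap of 23.4 between the highest KO and the lowest WT array. The log2 change was -1.52 ± 0.08 (SE, n = 3 each, adjusted p = 1.13e-07, limma), which left 34.9% of the WT signal with a 95% interval of 31.1% to 39.2%.

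The second Wt1 probe gave a similar proportion at much lower signal. Probe 17965 read 0.268, 0.134 and 0.466 on the KO arrays and 0.785, 0.828 and 0.951 on the WT arrays. The genotypes did not overlap, but the KO arrays scattered widely, with an SD of 57.8% of their mean against 5.35% on probe 2836. KO array 2 lay below 0.217, the intensity under which probes were left out of the test by their mean. On this probe the signal was 3.33-fold lower, with 17.1% to 52.5% of the WT signal left as the 95% interval, and the log2 change was -1.74 ± 0.37 (SE, n = 3 each, adjusted p = 0.00273, limma). The changes on the 2 probes differed by 0.22 on the log2 scale, with p = 0.80 in an exact two-sided permutation test over arrays, whose smallest possible p was 0.10. The probes lie in parts of the transcript that the sources used here do not give, so the signal left in KO ridges does not measure intact Wt1 RNA.

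**Figure D1:**
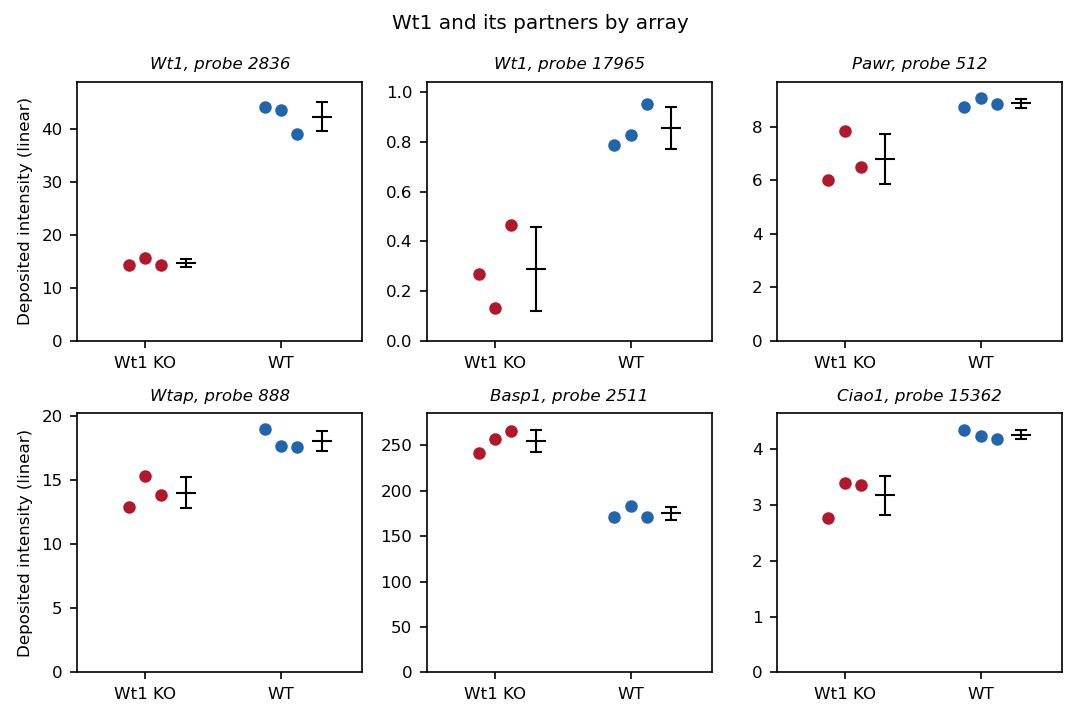
Deposited intensity (vertical axes, linear, from 0) of the 6 member probes on each array, with KO arrays in red at left and WT arrays in blue at right, and bars for the mean and SD of 3 arrays. On every probe the genotypes are separate: KO arrays are lower on both Wt1 probes, Pawr, Wtap and Ciao1, and higher on Basp1.

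All 6 member probes passed the threshold, where 41.3% of the tested probes did. On none of the 6 did KO and WT arrays overlap, and the same was true of 52.8% of tested probes, 21.4% lower and 31.4% higher in KO. Both Wt1 probes were called and at least 2-fold lower, which held for 3.12% of tested probes. Of the 4 partner probes, 3 were lower in KO and 1 was higher, beside 17.2% of all tested probes lower and 24.1% higher. With so large a background, calls on 4 genes say little about the partners as a group, and their sizes are given one by one.

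Wt1 stood at the edge of the whole distribution and its partners inside it. Only 1.29% of the tested probes had a larger change in either direction than probe 2836, and 0.850% a larger one than probe 17965. For Ciao1, Pawr and Wtap the shares were 33.7%, 37.3% and 41.2%, and for Basp1 23.3%. The partners' changes were thus of a size that a large part of the array reached.

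Pawr, the gene of the PAR-4 protein, was lower in KO ridges. It read 6.02, 7.83 and 6.49 on the KO arrays and 8.73, 9.06 and 8.84 on the WT arrays. The WT arrays lay close together and the KO arrays were spread, with KO array 2 nearest to WT. The log2 change was -0.40 ± 0.10 (SE, adjusted p = 0.00563), so that 75.9% of the WT signal was left (95% interval 65.7% to 87.7%).

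Wtap, the m6A writer subunit, fell by a similar amount. The KO arrays had 12.9, 15.3 and 13.8, and the WT arrays 19.0, 17.6 and 17.6. Each KO array was below each WT array. The log2 change of -0.37 ± 0.08 (SE, adjusted p = 0.00317) corresponded to 77.5% of the WT signal (68.6% to 87.5%).

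Ciao1, the iron-sulfur scaffold, had 2.78, 3.40 and 3.35 on the KO arrays and 4.35, 4.24 and 4.18 on the WT arrays. KO array 1 was the lowest, and the 3 WT arrays differed little. The log2 change was -0.43 ± 0.09 (SE, adjusted p = 0.00305), or 74.3% of the WT signal (64.5% to 85.5%).

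The changes of Pawr, Wtap and Ciao1 were close in size, and 3 arrays against 3 cannot order them, since the smallest p an exact permutation test allows is 0.10. They differed from each other by -0.03 to 0.06 on the log2 scale, with SEs of 0.06 to 0.08, and the exact two-sided p over arrays was 0.40 to 0.90 for the 3 pairs before any adjustment. These 3 genes were lowest on KO array 1 and highest in the KO group on array 2. KO array 1 was 0.16, 0.12 and 0.19 under the KO mean in log2 intensity for Pawr, Wtap and Ciao1. Without KO array 1 the log2 changes were -0.32, -0.31 and -0.34, and all 3 still passed. Over all tested probes, the medians by brightness of KO array 1 against the KO mean ran as low as -0.07. The part of such an array effect in the 3 genes was not tested beyond these values.

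Basp1 went the other way and was the brightest member. It read 242, 257 and 266 on the KO arrays and 171, 183 and 171 on the WT arrays. Each KO array was above each WT array by at least 58.4. On the deposited scaling Basp1 was 1.45-fold higher in KO (95% interval 1.30 to 1.63), with a log2 change of 0.54 ± 0.08 (SE, adjusted p = 0.000169).

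The Basp1 change depended on the scaling of bright probes. In the brightest eighth of the tested probes, which holds Basp1, the median log2 change was 0.26 and 54.8% of probes were called higher and 8.61% lower in KO. Within that eighth, 84.0% of probes had a lower log2 change than Basp1. After quantile normalization the log2 intensities of Basp1 were 7.80, 7.74 and 7.83 on the KO arrays and 7.59, 7.72 and 7.63 on the WT arrays. The log2 change was then 0.14 ± 0.06 (SE) with adjusted p = 0.0944, no longer past the threshold. Cyclic loess normalization gave 0.18 ± 0.06 with adjusted p = 0.0286. Under the same 2 normalizations Pawr, Wtap, Ciao1 and both Wt1 probes passed, with log2 changes of -0.39 to -0.48 for the 3 partners. Quantile normalization called 20.2% of tested probes higher and 19.6% lower, and cyclic loess 19.7% higher and 20.1% lower.

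**Figure D2:**
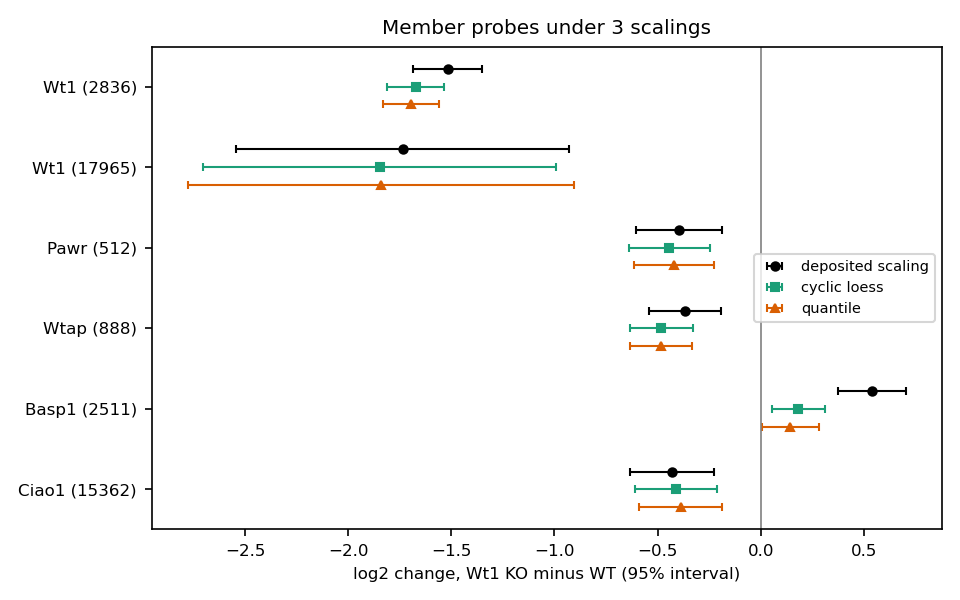
Log2 change (horizontal axis, KO minus WT) of the 6 member probes with 95% intervals from limma under the deposited scaling (black circles), cyclic loess (green squares) and quantile normalization (orange triangles). The Wt1 probes, Pawr, Wtap and Ciao1 stay below 0 in all 3, while Basp1 is at 0.54, 0.18 and 0.14.

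**Figure D3:**
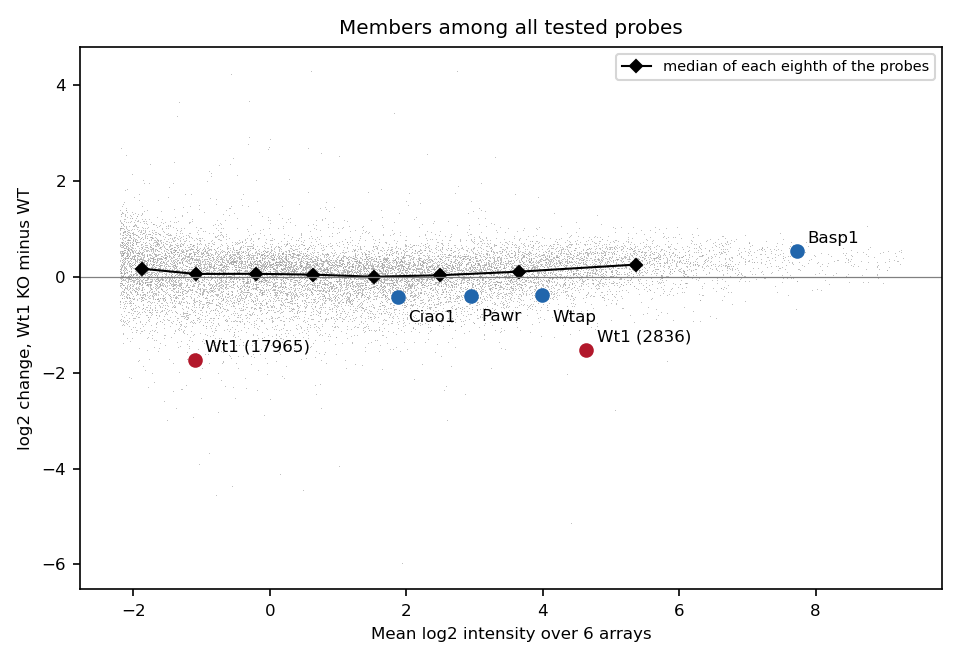
Log2 change (vertical axis, KO minus WT) against mean log2 intensity over 6 arrays (horizontal axis) for all 15062 tested probes (grey), with Wt1 probes in red, partner probes in blue and the median of each eighth of the probes by brightness as black diamonds. Wt1 probe 2836 lies under nearly all probes of its brightness, probe 17965 at the lower edge of the wider scatter of dim probes, the partners lie within the cloud, and the median line rises to 0.26 at the bright end, where Basp1 sits.

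The stretches before the start sites of the 4 measured partners are shown because 3 of these genes were lower together and the fourth was higher. They are the 250 bases upstream of the RefSeq start on GRCm38.p6, 5′ to 3′ on the gene's own strand, in lower case with each GC box, GGGCGG or its reverse complement, in capitals. Pawr is chr10:108331939-108332188 (plus strand), Wtap chr17:12992544-12992793 (minus), Ciao1 chr2:127247817-127248066 (minus) and Basp1 chr15:25413765-25414014 (minus).
Pawr: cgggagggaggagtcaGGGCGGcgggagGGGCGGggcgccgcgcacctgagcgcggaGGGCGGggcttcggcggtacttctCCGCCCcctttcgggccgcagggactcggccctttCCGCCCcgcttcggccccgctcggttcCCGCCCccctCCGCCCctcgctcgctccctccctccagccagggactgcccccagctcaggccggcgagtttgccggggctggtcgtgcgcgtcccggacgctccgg
Wtap: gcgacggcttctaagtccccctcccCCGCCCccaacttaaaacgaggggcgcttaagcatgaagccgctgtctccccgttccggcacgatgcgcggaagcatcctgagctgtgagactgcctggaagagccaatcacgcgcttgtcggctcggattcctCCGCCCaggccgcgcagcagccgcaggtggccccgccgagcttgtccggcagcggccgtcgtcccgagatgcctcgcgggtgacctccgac
Ciao1: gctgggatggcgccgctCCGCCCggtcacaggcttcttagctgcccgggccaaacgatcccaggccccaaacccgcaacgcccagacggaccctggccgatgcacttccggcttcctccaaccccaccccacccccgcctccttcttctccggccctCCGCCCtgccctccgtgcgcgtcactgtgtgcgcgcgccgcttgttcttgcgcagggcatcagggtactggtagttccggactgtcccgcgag
Basp1: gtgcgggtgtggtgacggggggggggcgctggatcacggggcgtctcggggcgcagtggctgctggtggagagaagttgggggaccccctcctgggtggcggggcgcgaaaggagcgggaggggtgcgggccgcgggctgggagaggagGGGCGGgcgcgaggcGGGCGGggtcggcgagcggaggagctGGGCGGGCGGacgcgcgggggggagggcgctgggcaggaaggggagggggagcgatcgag
These stretches were rich in G and C, from 68.0% in Wtap to 78.8% in Basp1. Matches on either strand numbered 7 in Pawr, 2 in Wtap, 2 in Ciao1 and 4 in Basp1 for the GC box, counting overlapping ones, and 32.7% of all 32851 promoter windows of this length had at least 1. The letters of a WT1 element, GCGTGGGAG, and of the early growth response element that WT1 can also bind, GCGGGGGCG, were in none of the 4. They occurred in 0.405% and 2.57% of all windows, and no motif contains another. The promoter table held Wtip as well, with 3 GC boxes and neither of the other elements, and no entry for Wt1.

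Wtap works in a complex with other m6A writers, and those tested rose or did not pass while Wtap fell. Of 5 tested writer genes other than Wtap, 3 were higher and none lower, with a median log2 change of 0.32 beside 0.09 over all tested probes. Of all tested probes 24.1% were called higher and 17.2% lower. In the brightest and next brightest eighths 54.8% and 37.3% were called higher, so this count says little about the writers as a group. After quantile normalization 3 of the 5 writer genes were still higher and none lower, with a median of 0.21 beside 0.03. Mettl14 had no probe of that symbol, and Cbll1 was too dim to be tested. Mettl3, the catalytic subunit, averaged 18.9 ± 0.335 in KO and 15.1 ± 0.425 in WT (SD, n = 3 each, adjusted p = 0.00241). The adaptor genes Rbm15 and Rbm15b, whose products bring the complex to its RNA targets, were 1.41-fold and 1.53-fold higher. Virma and Zc3h13 had log2 changes of 0.19 and 0.01.

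Genes that read or erase the m6A mark moved both ways, 3 higher and 2 lower of 5 tested, beside 24.1% and 17.2% of all tested probes. The demethylase genes Fto and Alkbh5 were 1.43-fold and 1.28-fold higher. Igf2bp3, which encodes an RNA-binding protein that reads the mark and is made mainly in embryos, was 2.21-fold lower in KO, at 3.43 ± 0.400 in KO and 7.57 ± 0.713 in WT (SD, n = 3 each, adjusted p = 6.94e-06). Its relative Igf2bp1 was 1.36-fold lower (adjusted p = 0.0215), and Ythdf3, a reader gene, was 1.22-fold higher on its brighter probe (adjusted p = 0.0217). The other Ythdf3 probe had a log2 change of 0.03 (adjusted p = 0.809). Each of the 2 calls, on Igf2bp1 and on the brighter Ythdf3 probe, ended in 6 of 15 alternatives.

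Of 7 tested genes that work with Ciao1 in iron-sulfur assembly, 3 were lower and 1 was higher, beside 17.2% and 24.1% of all tested probes. The median of these genes was -0.25, beside 0.09. The lower ones were Ciao3, 1.40-fold, which encodes the adaptor between early and late steps, Ciao2a, 1.33-fold, a direct partner of CIAO1, and Mms19, 1.32-fold, the targeting subunit for DNA polymerases and helicases. Without WT array 1 the call on Mms19 was lost (adjusted p = 0.0626). Ciapin1, an electron carrier of the first step, was 1.39-fold higher on its brightest probe, but its other 2 probes had log2 changes of -0.17 and -0.19 and did not pass. Ciao2b, the other CIAO1 partner of the DNA enzymes, read 19.8 ± 5.49 in KO and 22.7 ± 0.627 in WT (SD, n = 3 each, adjusted p = 0.213).

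Among 9 genes of PAWR's binding partners and effectors, 3 were lower and 1 was higher, beside 17.2% and 24.1% of all tested probes. Dapk3, the gene of the death kinase ZIPK that PAWR binds, read 1.45, 1.34 and 1.49 on the KO arrays and 3.76, 3.70 and 3.70 on the WT arrays. The arrays did not overlap, and Dapk3 was 2.61-fold lower (adjusted p = 5.60e-07). Its log2 change had a 95% interval of -1.57 to -1.20, beside -0.61 to -0.19 for Pawr. The genes of the atypical protein kinases C that PAWR binds went apart, Prkci 1.59-fold lower and Prkcz 1.38-fold higher. Rela, a subunit of NF-kB, was 1.84-fold lower. The list's median was -0.07.

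Genes related to Basp1 split in the same way. Marcks, which like Basp1 encodes a myristoylated protein that holds membrane phospholipid and actin, was the other very bright gene, at 415 ± 32.3 in KO and 275 ± 14.1 in WT (SD, n = 3 each, log2 change 0.59, adjusted p = 0.000191), and its log2 change was 0.17 after quantile normalization. Gap43, the growth cone protein gene, was 1.26-fold higher. Marcksl1 was 1.39-fold lower, and Phb, whose product prohibitin joins BASP1 in repression, 1.32-fold lower. In all, 2 of 6 were higher and 2 lower, beside 24.1% and 17.2% of all tested probes.

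Basp1 and Gap43 are made strongly in neurons, and markers of neurons and neural crest were higher in the same KO arrays. Of 8 tested markers 7 were higher and none lower, with a median of 1.29, beside 24.1% and 17.2% of all tested probes. The summed intensity of these markers was 61.8 to 62.8 on the KO arrays and 27.1 to 28.2 on the WT arrays. None of the 8 was under the intensity limit on all arrays. Neural tube markers were higher in 2 of 3 tested and lower in none. Their median of 3.64 was the log2 change of Dbx1, which read 0.215, 0.0146 and 0.0652 on the WT arrays. These lay under the limit of 0.217, so the rise of Dbx1 is a bound, at least 6.44-fold. The summed intensity of the neural tube markers was 33.1 to 36.2 on the KO arrays and 5.65 to 5.70 on the WT arrays. Most of it in KO was Zic1, at 29.5 ± 1.59 in KO and 1.51 ± 0.112 in WT (SD, n = 3 each), while Nes did not pass. The part of neurons, neural crest or neural tube in the Basp1 signal was not tested. In bulk tissue, fewer cells of a type and less RNA per cell cannot be told apart.

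Markers of the coelomic epithelium and gonadal ridge, where Wt1 is made, were lower in the KO arrays. Of all tested probes 17.2% were called lower, and of these markers 7 of 8 tested, with a median of -1.07. Their summed intensity was 14.5 to 15.1 on the KO arrays and 54.1 to 57.6 on the WT arrays, and Podxl was under the limit on every array. Most of that gap came from Amhr2, the receptor gene of anti-Müllerian hormone, at 0.480 ± 0.0575 in KO and 30.6 ± 1.77 in WT (SD, n = 3 each). Without Amhr2, left out after its values were seen, the sums were 14.0 to 14.7 on the KO arrays and 25.4 to 25.6 on the WT arrays. Gata4, a transcription factor of the same epithelium, did not pass, at 2.22 ± 0.128 in KO and 2.30 ± 0.0374 in WT (SD, n = 3 each). How far the amount of this tissue sets the Wt1 signal was not tested. Markers of the nephric duct and mesonephros were higher in 3 of 5 tested and lower in none, with a median of 0.47. The 3 were Gata3, Osr1 and Ret, while Cdh16 had a log2 change of -0.16 and did not pass. Of all tested probes 24.1% were called higher.

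Relatives of Wtip, the Ajuba and zyxin family of LIM proteins at cell junctions, were measured although Wtip was not. Zyx fell 1.53-fold and Limd1 1.48-fold, with adjusted p of 3.38e-05 and 0.000278. Ajuba and Trip6 were 1.17-fold and 1.16-fold higher on the deposited scaling, and Trip6 turned to a log2 change of -0.03 after quantile normalization. Of 7 tested genes of the Hippo and Ror2 pathways and the Snail factors, which this family binds, 3 were lower and none higher. The shares of all tested probes were 17.2% lower and 24.1% higher. Yap1, the Hippo pathway's coactivator, fell 1.45-fold, Snai2 1.68-fold and Snai1 1.26-fold, the last a call that ended in 9 of 15 alternatives. Snai2 rested on unequal KO arrays, at 14.4, 6.74 and 7.38 against 14.6, 15.4 and 15.2 on the WT arrays, so that KO array 1 reached nearly to WT.

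Of 7 tested genes of other proteins reported to bind WT1, 4 were lower and none higher, with a median of -0.32. Over all tested probes 17.2% were lower and 24.1% higher, with a median of 0.09. Nr5a1, among these 4, was also counted with the gonadal ridge markers. Fhl2, a LIM-only coactivator, had a log2 change of -0.67. Rbm4, a splicing factor, was 1.27-fold lower and Htra2, a protease that cuts WT1, 1.25-fold. Nr5a1, the steroidogenic factor SF1 that acts with WT1 in the gonad, read 2.13, 2.01 and 2.20 on the KO arrays and 2.80, 2.67 and 2.89 on the WT arrays, with a log2 change of -0.40 ± 0.09 (SE, adjusted p = 0.00287). Stat3 had a log2 change of -0.21 on its brightest probe, which did not pass, and -0.59 and -1.04 on 2 dimmer probes, which did. U2af2, the splicing factor that WT1 binds, was at 34.1 ± 3.05 in KO and 29.5 ± 2.08 in WT (SD, n = 3 each, adjusted p = 0.0699).

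The zinc finger genes closest to Wt1 in sequence were mostly dim. Of Egr1 to Egr4, only Egr2 was tested, and it was 2.38-fold higher in KO (0.632 ± 0.0518 in KO and 0.273 ± 0.0788 in WT, SD, n = 3 each, adjusted p = 0.00322). Egr1, an immediate early gene, read 0.0666 to 0.149 on the KO arrays and 0.0796 to 0.237 on the WT arrays. Sp1 and Sp3, factors of the GC box, had log2 changes of 0.12 and -0.24 and did not pass.

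**Figure D4:**
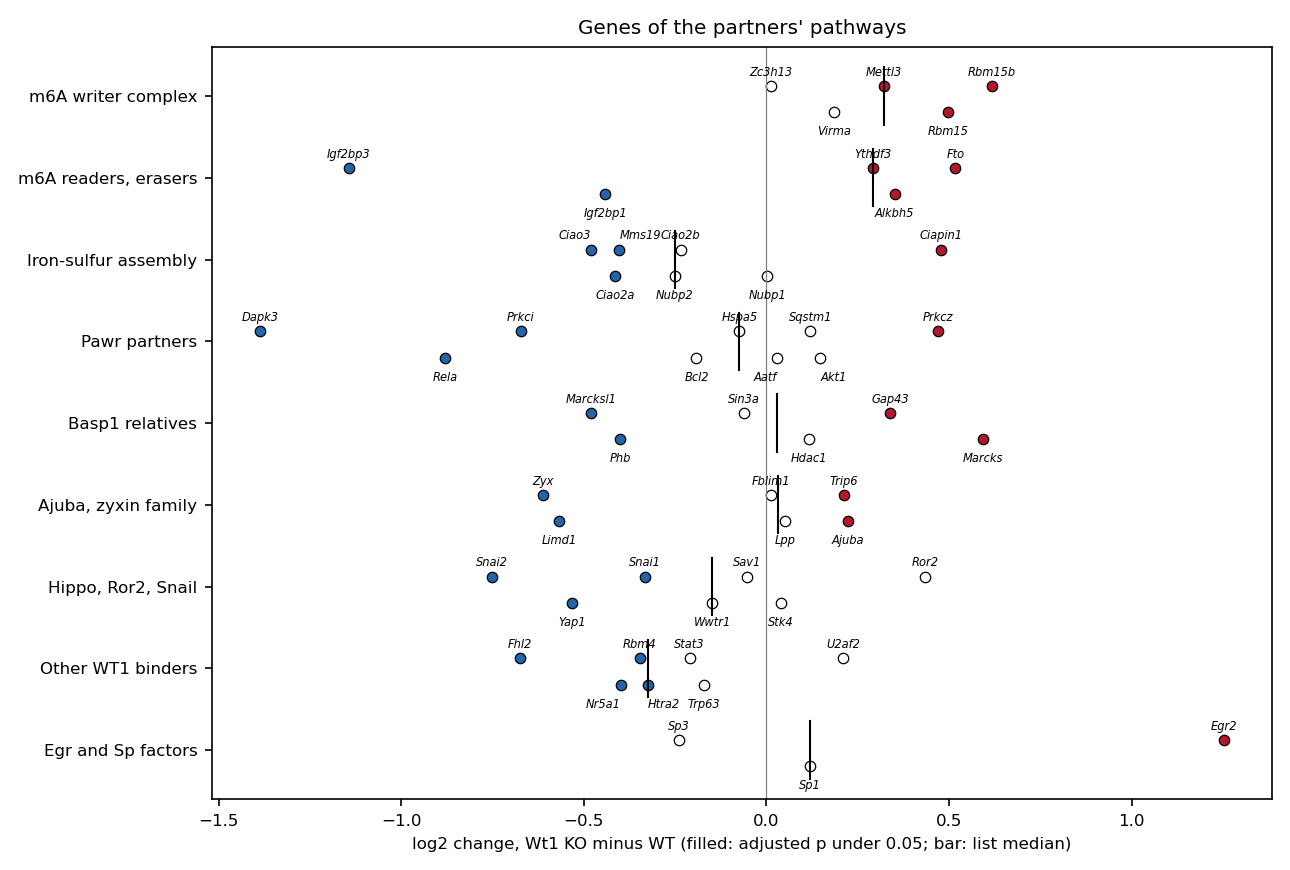
Log2 change (horizontal axis, KO minus WT) of the tested genes in 9 lists around the partners (rows), each gene by its brightest probe, with filled points for adjusted p under 0.05 (red higher, blue lower in KO), open points for the rest and a bar at each list's median. Dapk3 and Igf2bp3 lie lowest and Egr2 highest, and the m6A writer genes lie at or above 0 while Wtap itself was at -0.37.

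Over the 10 lists, 16 of 64 tested genes were higher and 21 lower, so 57.8% were called beside 41.3% of all tested probes. The lists were drawn up with earlier results of these data known, and this share is a description. List genes entered by their brightest probe, and calls were more frequent among bright probes. In the dimmest eighth of tested probes 3.19% were called higher and 2.39% lower, and in the brightest 54.8% and 8.61%. The 57.8% and the 41.3% were not matched for brightness, so no excess in the lists can be read from them.

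The genes around Wt1 on chromosome 2 were examined next, by their order in RefSeq on GRCm38.p6. Of the 30 nearest protein-coding genes, 15 on each side, 20 were tested, of which 4 were lower and 6 higher in KO, shares not far from the 17.2% lower and 24.1% higher of all tested probes, so the count says little about the locus. Eif3m and Them7 are the closest on either side. Eif3m, a translation initiation factor gene, did not pass, with a log2 change of -0.07 (adjusted p = 0.613), but after quantile normalization it was -0.36 with adjusted p = 0.0328. Them7 was 1.82-fold higher (log2 change 0.86 ± 0.12, SE, adjusted p = 0.00016). Rcn1, a calcium-binding protein gene of the secretory pathway with 1 gene between it and Wt1, was 1.31-fold lower (adjusted p = 0.0113). That call ended when WT array 2 was left out, and also when limma's prior variance was held the same at every intensity.

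Qser1, with 3 genes between it and Wt1, also fell. It read 4.09, 2.59 and 2.83 on the KO arrays and 9.62, 8.14 and 10.3 on the WT arrays. That was 2.99-fold lower, with a log2 change of -1.58 ± 0.15 (SE, adjusted p = 1.05e-05), against -1.52 for Wt1 on probe 2836. Farther along the same side, Cd59a, which encodes an inhibitor of complement lysis, was 17.5-fold lower, at 0.284 ± 0.123 in KO and 4.63 ± 0.215 in WT (SD, n = 3 each), and Fbxo3, a ubiquitin ligase subunit gene, 1.71-fold lower. Them7, Cd59a and Fbxo3 were named after their values were seen.

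**Figure D5:**
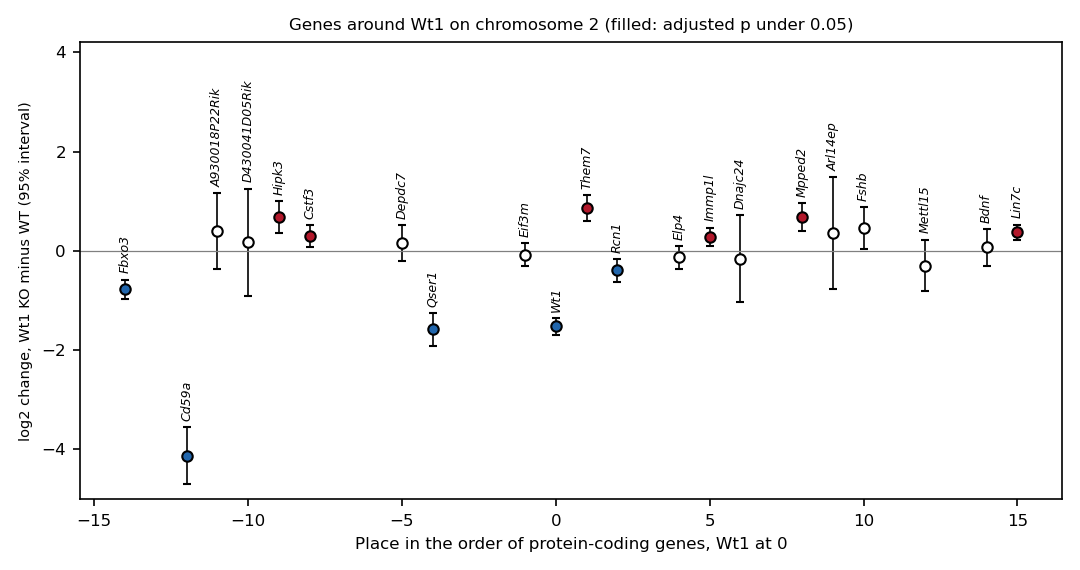
Log2 change (vertical axis, KO minus WT, with 95% limma intervals) of tested genes by their place in the order of protein-coding genes around Wt1 (horizontal axis, Wt1 at 0). Filled points passed adjusted p under 0.05, blue lower and red higher in KO. Wt1 and Qser1 lie at -1.52 and -1.58 with Eif3m at -0.07 between them, and Cd59a lies at -4.13.

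The genes whose log2 values over the 6 arrays, centred on their own mean, were nearest to Wt1 probe 2836 by Euclidean distance were Krt8, Plac1, Ube2v1, Laptm4b and Zfpm2, at distances of 0.15 to 0.23 among 11424 named probes. With 2 genotypes this ranks genes by how far they fell, and Krt8, a keratin gene of epithelia, had a log2 change of -1.44 and Plac1 one of -1.52. Zfpm2, a cofactor gene of GATA4, was at least 2.54-fold lower, a bound set by the intensity limit. Terf2ip, Id2 and Rap1gds1 were nearest to Pawr, and Trps1, Rad51ap1 and Atp5g2 to Wtap. Ociad1, Mal and Itgb5 were nearest to Ciao1. Kitl, the ligand of the germ cell receptor Kit, was among the 3 nearest to Basp1, at 52.1 ± 2.01 in KO and 35.3 ± 1.71 in WT (SD, n = 3 each), beside Plekha2 and Pfkp.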

How the data were processed

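Biotin-labelled total RNA of pooled ridges was hybridised to CodeLink Mouse 20k arrays, per the labels and series text. The deposited values are spot intensity values on a linear scale, 1 column per array, with nearly equal medians. How the authors scaled or background-corrected them is not given in the sources used here, and no flags came with them. Each array had 20077 to 20099 values, of which 153 to 246 were at or below 0. No further normalization was applied. Values under the 5th percentile of positive values (0.0811) were raised to that floor before log2 transformation. Testing required values on 2 or more arrays of each genotype and a mean log2 over the 25th percentile of probes (intensity 0.217). limma 3.58.1 in R 4.3.3 (lmFit, eBayes with trend) compared 3 KO with 3 WT arrays, which gave each adjusted p unless another setting is named. The fit was also run on simulated arrays with independent noise, few changed probes and no shift by brightness, which checks the code and not the calls made here. Folds are back-transformed log2 changes, and means and SDs were taken over intensities. A fold against a mean under the limit is a bound.

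Probe names come from the GEO platform annotation, checked by Entrez identifier against RefSeq (GRCm38.p6). It gave 1 symbol for 15120 probes, several for 38 and none for 5131, and 56 named probes had no RefSeq match. For each list gene the brightest probe measured on all 6 arrays was used. Of each list, up to 4 called genes of largest absolute change were named, and others were named for their role after values were seen. The members and lists were chosen with earlier results of these data known. Alternatives covered normalization, floor, filter, variance prior, a replicate block and leaving out each array. Summed marker intensities count values below 0 as 0. Listed genes with no probe of that symbol were not analysed here. Promoters are from RefSeq, and of several windows for a gene the most upstream was taken.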

Additional observations from a re-analysis of the deposited data

How the results depend on the processing

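Wt1 probe 2836, Pawr, Wtap and Ciao1 kept their direction and stayed past the threshold in all 15 alternatives, with the highest adjusted p at 0.000483, 0.0368, 0.0247 and 0.0209, each in the fit with no trend in the variance prior. Wt1 probe 17965 did so in the 14 that tested it (log2 change -2.17 to -1.27, highest adjusted p 0.0257); when only probes brighter than the median one were kept, it was not tested. Basp1 passed in 14 of 15 and missed under quantile normalization, at 0.14 on the log2 scale, and leaving out single arrays gave 0.51 to 0.58. The floor, filter, variance prior and replicate block alternatives left the log2 change of each member probe they tested as it was. In those, direction could not differ and only the p-value could. No shared deviation was seen between KO and WT arrays of the same number. Their deviations correlated at -0.0208 to 0.000489, none over 0.1, beside -0.0205 to 0.0253 for different numbers. Whether such arrays were collected or handled in pairs was not tested. With the number as a replicate block, 6019 probes were called in place of 6221, and the 6 member probes still passed, with log2 changes such as -1.52 for Wt1 probe 2836. Among the called genes of the pathway lists, Trip6 and Snai1 lost the call in 9 of 15 alternatives, Igf2bp1 and Ythdf3 in 6, Ajuba, Snai2, Immp1l and Cstf3 in 5, Rcn1 in 2 and Mms19 and Htra2 in 1. Trip6 changed direction under quantile and cyclic loess normalization, and Immp1l under quantile. Leaving out single arrays gave 30 to 47 called list genes, beside 37 with all arrays. The causes were not tested. No detection flags came with the values, so a dim signal such as that of probe 17965 in KO could not be told from background by a flag.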

Other observations

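Other cell types showed their markers at unlike levels in the same arrays. Of 7 tested muscle and somite markers 4 were higher in KO and none lower. After quantile normalization 4 were higher and 1, Actc1, was lower (log2 change -0.40, limma adjusted p = 0.000664). The summed muscle and somite signal was 59.3 to 66.1 on the KO arrays and 55.9 to 57.7 on the WT arrays. Among 5 germ cell markers 3 were lower and none higher. Over all tested probes 24.1% were called higher and 17.2% lower. The summed erythroid signal was 1101 to 1118 on the KO arrays and 1113 to 1163 on the WT arrays, and none of its 3 tested globin genes passed, although all 3 were called lower after quantile normalization.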
